A study of Homo sapiens with 6 samples.

Results

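The oncofetal and liver cancer marker genes are 10 genes, of 20381 in the deposited table, whose symbol is *AFP*, *GPC3*, *IGF2*, *DLK1*, *SPINK1*, *LIN28B*, *IGF2BP1*, *IGF2BP3*, *PROM1* or *CD24*. They were chosen by name, with earlier results of these data known, and each symbol matched a single row. Their mRNA was measured by RNA-seq of poly(A) RNA in HCCLM3, an established human hepatocellular carcinoma (HCC) line, in 3 libraries with *PON1* overexpression (PON1-OE) and 3 negative control libraries (NC). *PON1* encodes paraoxonase 1, an esterase that the liver secretes and that circulates on high-density lipoprotein. PON1-OE cells carried the *PON1* coding sequence from a lentivirus and were puromycin-selected. NC cells carried the empty lentiviral vector according to the series design text. Both groups were grown in RPMI-1640, with 15% serum and lysis 24 h after transfection by that text, whereas the sample labels name a stable overexpression. How the 3 libraries of a group were derived was not given in the sources used here, so n counts libraries and the p-values measure the spread between them, which may be technical.

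Oncofetal genes are used by the fetal liver, largely silenced in the adult organ and often switched on again in HCC. A chain among them is well known. LIN28B binds the precursors of the let-7 microRNAs and blocks their maturation, let-7 represses mRNAs that carry matches to its seed, and these mRNAs include those of LIN28B itself, of the RNA-binding proteins IGF2BP1 and IGF2BP3, and of the chromatin protein HMGA2. The other members are secreted proteins (AFP, SPINK1, and IGF2) or sit at the cell surface (GPC3, DLK1, PROM1, and CD24), and several serve as serum or tissue markers of HCC.

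The let-7 sequences are shown because they connect 3 of the members. The mature sequences below are from RefSeq (GRCh38.p14), written 5′ to 3′, and the capitals mark the seed, bases 2 to 8.
hsa-let-7a-5p: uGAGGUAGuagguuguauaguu
hsa-let-7d-5p: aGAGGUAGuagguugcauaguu
hsa-miR-98-5p: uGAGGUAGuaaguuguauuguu
All 9 let-7 and miR-98 5p sequences in the table shared the seed GAGGUAG. Its match in an mRNA is CTACCTC in DNA letters, and it was searched on the sense strand of the 3′ UTRs of GENCODE v29 (GRCh38). *LIN28B* and *IGF2BP1* held 4 matches each and *IGF2BP3* held 1, whereas the 3′ UTRs of the other 7 members held 0. Of 19097 genes with a 3′ UTR, 10.5% held at least 1 match, and 14 genes held 4 or more.

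The matches of *IGF2BP1* lie in its 3′ UTR on the plus strand, and each is shown as a 30-base window with the match in capitals.
chr17:49051064-49051093: gtgcgaagtaaaCTACCTCaaggtatgaag
chr17:49053701-49053730: cagtgctagtaaCTACCTCacagagcccca
chr17:49054355-49054384: taaatggattaaCTACCTCaatccttacag
chr17:49055000-49055029: cttttgttttatCTACCTCttagcaaaaca
The match of *IGF2BP3* lies in its 3′ UTR on the minus strand.
chr7:23311785-23311814: atttttactcaaCTACCTCaggtattcagt
Those of *LIN28B* lie in its 3′ UTR on the plus strand.
chr6:105078815-105078844: cggttgcaaagtCTACCTCatgcaagtata
chr6:105081242-105081271: tgatgatagtaaCTACCTCtgagtttgaca
chr6:105081424-105081453: tacagcaaaaggCTACCTCatagttgatac
chr6:105082863-105082892: tgatggtgttgaCTACCTCttgaatcacat
*IGF2BP1* had 0.645 matches per kilobase of 3′ UTR, *LIN28B* had 0.879 and *IGF2BP3* had 0.464, against 0.0618 over all 3′ UTRs. A match is a description of letters and not a measured site. Mature let-7 is not part of poly(A) RNA and was not measured.

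The total of the deposited counts was 15706672 to 17948383 per library, and 3 counts in a library, the limit that a count of 0 allows, corresponded to 0.166 to 0.192 CPM (counts scaled to a common library total). This limit covers counting error only. *PON1* had 0, 2 and 3 counts in the NC libraries against 155, 181 and 167 in the PON1-OE libraries, so that the labels held in every library. With NC set to 3 counts per library, PON1-OE libraries had an at least 60.0-fold higher level. The cell type label, hepatocyte, was only partly met. The hepatocyte transcription factors *HNF4A* and *FOXA2* had mean levels of 78.6 and 63.0 CPM in NC, and the secreted plasma proteins *APOH*, *TF* and *APOB* had 27.3, 21.3 and 5.77 CPM, while *ALB*, the main plasma protein of hepatocytes, had 30 counts over the 3 NC libraries together and *TTR* and *SERPINA1* had 3 each. Of 16 hepatocyte markers 11 were tested, and none had an adjusted p under 0.05 by edgeR's quasi-likelihood test, against 0.677% of all genes tested. By the same test 2, *APOB* and *APOH*, had an unadjusted p under 0.05, both with PON1-OE lower, against 11.1% of all genes tested. Of the 11, 4 had a log2 fold change above 0 and 7 below, with a median of -0.16, against -0.0025 over all genes tested. Of 8 immune markers, 5 had 0 counts in every library, among them *PTPRC*, *CD3E*, *MS4A1* and *LYZ*. The list summed to 211 to 231 CPM in NC, against 229.8 to 253 CPM with PON1-OE, nearly all from the lysosomal gene *CD68* (206 to 248 CPM, log2 fold change 0.13, adjusted p = 0.252), and *ITGAM* had 4.48 to 5.88 CPM. The 6 endothelial markers summed to 22.1 to 24.9 CPM in NC, against 25.4 to 28.0 CPM with PON1-OE, mostly from *PECAM1* and *KDR*. Their part in the results was not tested.

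The 10 members fell into 3 levels. *SPINK1*, *IGF2BP1* and *IGF2BP3* were well expressed in every library. *AFP* and *IGF2* were low, with 4 to 18 and 3 to 7 counts per library. *CD24*, *PROM1*, *GPC3*, *DLK1* and *LIN28B* did not exceed the limit of 3 counts in any library. In bulk RNA, fewer cells with an mRNA and less mRNA per cell cannot be told apart. Compared between genes as mean CPM per kilobase of the longest GENCODE v29 transcript over the 6 libraries, *SPINK1* led with 20.8 ± 1.97 (SD), followed by *IGF2BP1* with 15.0 ± 0.544 and *IGF2BP3* with 9.65 ± 0.721. Among 20126 genes with an annotated length these levels ranked 3098, 3957 and 5276. *AFP* followed at 0.291 ± 0.140 and *IGF2* at 0.0628 ± 0.0175. *CD24* had 0.0243 ± 0.0216 and *PROM1* 0.00212 ± 0.00519. The library values of neighbours down to *IGF2* did not overlap, for example 17.5 to 22.2 for *SPINK1* against 14.2 to 15.7 for *IGF2BP1*, and 0.0890 to 0.441 for *AFP* against 0.0343 to 0.0784 for *IGF2*. *IGF2*, *CD24* and *PROM1* overlapped with their neighbours, so that their order is not fixed by these libraries. With all annotated exons as the length, the level of *IGF2BP3* was 4.82 CPM per kilobase and the order was the same.

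**Figure D1:**
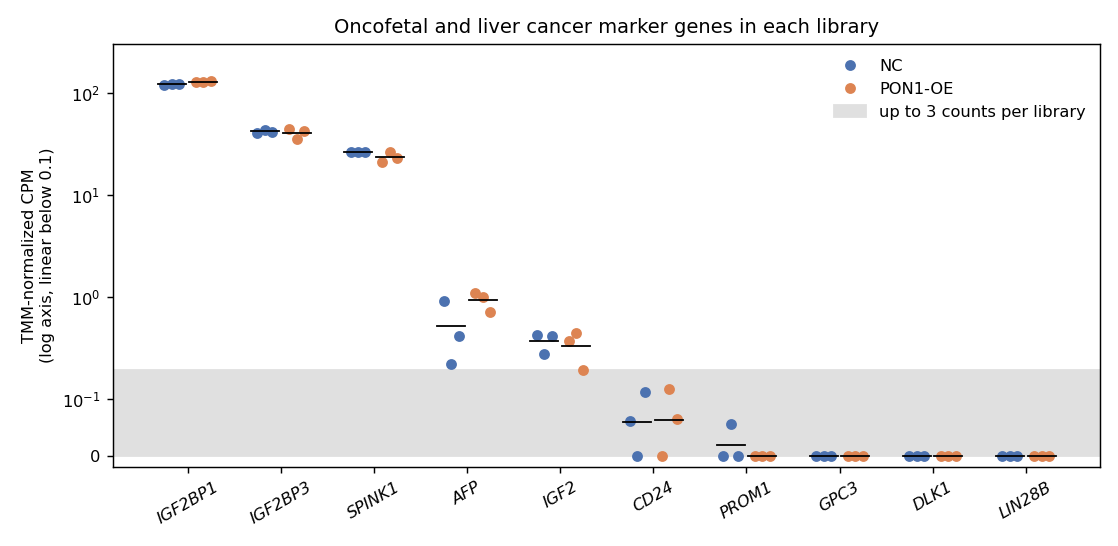
TMM-normalized CPM of the 10 members in each library (y axis, logarithmic, linear below 0.1), with NC in blue, PON1-OE in orange and group means as black lines. *IGF2BP1*, *IGF2BP3* and *SPINK1* lie above 20 CPM in every library, whereas *CD24*, *PROM1*, *GPC3*, *DLK1* and *LIN28B* lie within the grey band of up to 3 counts per library.

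Of the 10 members, 4 passed the filter on low counts and were tested between PON1-OE and NC. None of the 4 had an adjusted p under 0.05 by edgeR's quasi-likelihood test, and none had an unadjusted p under 0.05. DESeq2, which gave an adjusted p for 2 of these members (*IGF2BP1* and *IGF2BP3*), and limma-voom also called 0. Among all 11958 genes tested, 0.677% had an adjusted p under 0.05 (0.502% with PON1-OE higher and 0.176% with PON1-OE lower), 0.0502% also differed by more than 1.5-fold in either direction, and 11.1% had an unadjusted p under 0.05. The median log2 fold change of the 4 members was 0.02, against -0.0025 over all genes tested. The groups did not overlap for 1 of the 4, *IGF2BP1*, compared with 16.1% of all genes tested (8.32% with PON1-OE higher and 7.74% with PON1-OE lower). An exact permutation test over the 6 libraries cannot go below p = 0.1 (two-sided).

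Among the secreted markers, *AFP* encodes alpha-fetoprotein, the main plasma protein of the fetal liver and the serum marker of HCC. It lies at chr4:73431138-73456174 on the plus strand, in GENCODE v29. It had 15, 4 and 7 counts in NC replicates 1 to 3, against 18, 16 and 11 for the PON1-OE libraries in the same order. As CPM these were 0.908, 0.221 and 0.410 for NC, against 1.10, 1.00 and 0.702 for PON1-OE. NC replicate 1 lay within the range of PON1-OE and the other 2 NC libraries lay below it. The level was 0.513 ± 0.355 CPM in NC, against 0.933 ± 0.205 CPM with PON1-OE (mean ± SD, n = 3 libraries a group). The log2 fold change was 0.88 (SE 0.47, 95% interval -0.10 to 1.85, adjusted p = 0.511 by edgeR). It was 1.55 without NC replicate 1 (adjusted p = 0.428) and 0.51 without NC replicate 2 (adjusted p = 0.778). The interval is wide and includes 0, so these counts do not settle whether *AFP* differed between the groups.

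*SPINK1* encodes a secreted trypsin inhibitor of the pancreas that many HCCs also make. It lies at chr5:147824568-147831786 on the minus strand. It had 26.2, 26.1 and 26.3 CPM in NC, against 20.8, 26.3 and 22.9 CPM with PON1-OE replicates 1 to 3. PON1-OE replicates 1 and 3 lay below all NC libraries, and replicate 2 lay just above them. The level was 26.2 ± 0.0899 CPM in NC, against 23.4 ± 2.78 CPM with PON1-OE (mean ± SD, n = 3 libraries a group). The NC libraries lay closer to each other, a difference in spread that was not tested. The log2 fold change was -0.16 (SE 0.085, 95% interval -0.34 to 0.01, adjusted p = 0.495). Without PON1-OE replicate 2 it was -0.26 (adjusted p = 0.170), and without PON1-OE replicate 1 it was -0.08 (adjusted p = 0.805).

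*IGF2* encodes insulin-like growth factor 2, a fetal growth factor from an imprinted locus. The gene lies at chr11:2129112-2149603 on the minus strand. The rounded counts were 7, 5 and 7 for NC replicates 1 to 3, against 6, 7 and 3 for PON1-OE replicates 1 to 3. These groups overlapped, the filter removed the gene, and 5 of 6 libraries were above 3 counts. GENCODE v29 has another *IGF2* entry, ENSG00000284779, which shares 5144 exonic bases with it and has no symbol in the deposited table. That entry had 2, 2 and 0 counts in NC, whereas each PON1-OE library had 0, and reads could have been split between the pair.

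None of the 4 surface markers exceeded 3 counts in any library. *GPC3* encodes glypican-3, a heparan sulfate proteoglycan used in the tissue diagnosis of HCC, and *DLK1* encodes a Delta-like protein of fetal hepatoblasts. Both had 0 counts in all 6 libraries, so that a level of up to 0.192 CPM could have been missed in any of them. *PROM1*, which encodes the stem cell antigen CD133, had a count of 1 in NC replicate 2 and 0 elsewhere. *CD24*, which encodes a small glycosylated surface protein, had 1, 0 and 2 counts in NC, against 0, 2 and 1 for PON1-OE. No fold change is given for these genes, since both groups were at or under the limit.

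The RNA-binding members were unequal. *LIN28B* had 0 counts in every library. *IGF2BP1* and *IGF2BP3* encode proteins that bind mRNAs in the cytoplasm and protect them from decay, and both were expressed throughout.

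*IGF2BP1* lies at chr17:48997412-49055650 on the plus strand. It had 118, 122 and 122 CPM in NC replicates 1 to 3, against 127, 126 and 130.2 CPM with PON1-OE. Every PON1-OE library lay above every NC library. The level was 121 ± 2.41 CPM in NC, against 128 ± 2.24 CPM with PON1-OE (mean ± SD, n = 3 libraries a group). The log2 fold change was 0.08 (SE 0.043, 95% interval -0.01 to 0.17), a 1.06-fold difference that did not pass the test (adjusted p = 0.482, and exact permutation p = 0.1, the smallest possible).

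*IGF2BP3* lies at chr7:23310209-23470467 on the minus strand. It had 40.7, 42.8 and 41.6 CPM in NC, against 44.0, 35.2 and 41.8 CPM with PON1-OE replicates 1 to 3. PON1-OE held both the highest and the lowest library, and the groups overlapped. The level was 41.7 ± 1.05 CPM in NC, against 40.3 ± 4.58 CPM with PON1-OE (mean ± SD, n = 3 libraries a group). The log2 fold change was -0.05 (SE 0.075, 95% interval -0.20 to 0.11, adjusted p = 0.872), and it was 0.04 without PON1-OE replicate 2. *IGF2BP3* shares 1521 exonic bases with *MALSU1* on the opposite strand. Whether reads were counted by strand was not given in the sources used here, and with the counts of both genes summed the log2 fold change was -0.02 (adjusted p = 0.936).

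**Figure D2:**
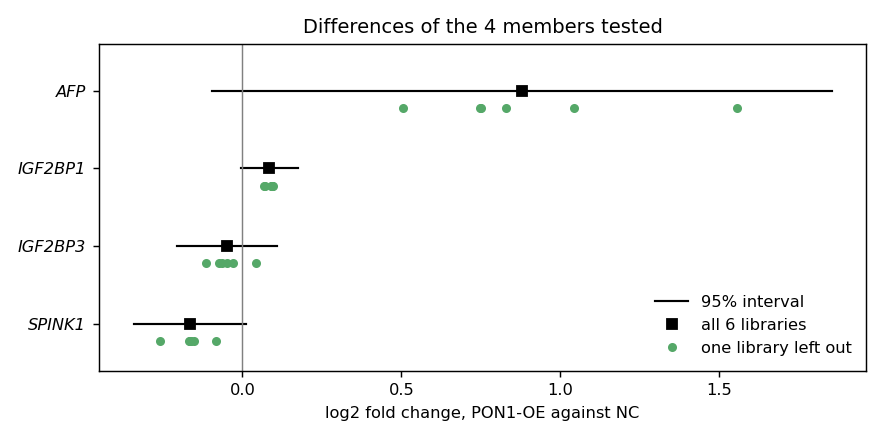
Log2 fold change of PON1-OE against NC (x axis) for the 4 members tested, with black squares and lines for the estimate and 95% interval from all 6 libraries and green points for fits that leave out 1 library each. All 4 intervals include 0, and the green points of *IGF2BP3* lie on both sides of 0.

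The closest relatives of the members were read from the same libraries. Of 18 relatives, 5 were tested, and 0 had an adjusted p under 0.05 by edgeR or limma-voom. DESeq2 also called 0 of the 2 to which it gave an adjusted p. By edgeR, 0 had an unadjusted p under 0.05. Over all genes tested by edgeR, the shares were 0.677% by adjusted p and 11.1% by unadjusted p, in either direction. *IGF2BP2*, the family member that adult tissues also express, stood at 11.5 ± 0.252 CPM per kilobase over the 6 libraries (SD), between *IGF2BP1* and *IGF2BP3*. Its log2 fold change was 0.00 (SE 0.062, 95% interval -0.13 to 0.13). All 3 *IGF2BP* genes were therefore present, and both *LIN28* genes, *LIN28A* and *LIN28B*, had 0 counts. Among the glypicans, *GPC1* was the main one with 24.1 ± 1.08 CPM per kilobase. *GPC6* had 0.529 ± 0.0981, *GPC2* had 0.0781 ± 0.0578, and *GPC4* and *GPC5* had 0 counts in every library, as *GPC3* did. *GPC1* had a log2 fold change of 0.06 (95% interval -0.04 to 0.17) and *GPC6* of -0.25 (95% interval -0.69 to 0.18).

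*AFP* belongs to the albumin gene cluster of chromosome 4. *ALB* had 0.228 ± 0.0865 CPM per kilobase, close to *AFP*, with a log2 fold change of -0.34 (SE 0.50, adjusted p = 0.865). *AFM* reached 3 counts in PON1-OE replicate 1 only, and *GC* had 0 counts throughout. *IGF1* and *INS*, the relatives of *IGF2*, also had 0 counts. *DLK2*, the relative of *DLK1*, had 0.564 ± 0.197 CPM per kilobase and a log2 fold change of 0.08 (SE 0.38). *SPINK4* had 0.963 ± 0.246 CPM per kilobase and *SPINK5* 0.0305 ± 0.0368, far under *SPINK1*, while *SPINK2* and *SPINK6* had 0 counts. *PROM2* had a single count in NC replicate 3.

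**Figure D3:**
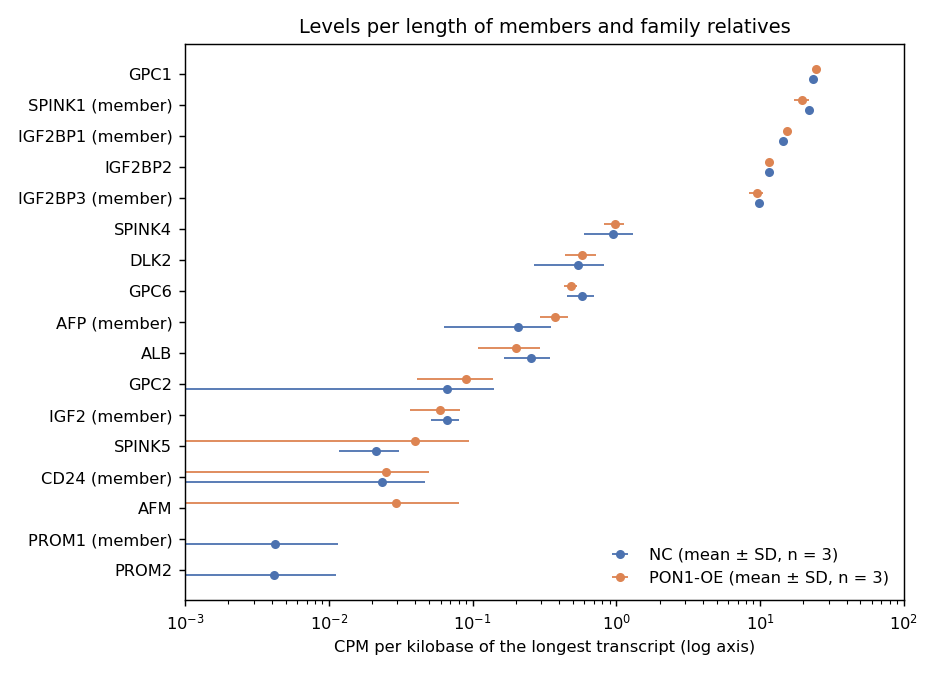
CPM per kilobase of the longest transcript (x axis, logarithmic) of the members and their family relatives with a count above 0, as group mean ± SD of 3 libraries, with NC in blue and PON1-OE in orange. *GPC1*, *SPINK1* and the 3 *IGF2BP* genes have means near or above 10, the other means lie under 1, a group mean of 0 is not drawn, and bars that pass the left edge reach toward 0.

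Promoters differed among the members. For 6 of the 10 a RefSeq promoter (GRCh38.p14) was at hand, and CG pairs were counted in the 250 bases before each listed start. *SPINK1* had 0 CG pairs and *AFP* had 1, against a median of 11 and quartiles of 3 and 23 over 35116 promoters. *IGF2BP3* had 15. Of the members at or under 3 counts, 3 had a promoter in the table, with 2 starts listed for *LIN28B*, 3 for *CD24* and 4 for *PROM1*. Each had a start with more CG pairs than the upper quartile, 33 for *LIN28B*, 27 for *CD24* and 26 for *PROM1*. Their other starts had as few as 6, 17 and 5. The quartiles are over single promoters, so a gene with more starts passes them more easily. No methylation was measured.

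The IGF axis list held receptors, binding proteins and signal adaptors around *IGF2*. Like the members and gene lists above, this list and those that follow were chosen with earlier results of these data known. The calls of these lists therefore cannot be weighed against all genes. *IGFBP3*, *DGCR8*, *ACTB*, *XYLT2*, *CEBPA* and *ABCG2* were named because their groups did not overlap at an unadjusted p under 0.05 by edgeR. Their lack of overlap is thus part of the choice, and 16.1% of all genes tested had groups that did not overlap. Of 15 genes, 14 were in the table and 10 were tested. Of these, 1 had an adjusted p under 0.05 with PON1-OE higher and 0 with PON1-OE lower. Over all genes tested, the shares were 0.502% and 0.176%. The median log2 fold change of the list was 0.01. The gene called was *IGFBP1*, a liver binding protein that carries IGFs in plasma. It had 1091, 958 and 976 CPM in NC, against 1245, 1161 and 1170.3 CPM with PON1-OE. Every PON1-OE library lay above every NC library, with a log2 fold change of 0.24 (SE 0.042, adjusted p = 0.00853). Without NC replicate 3 the adjusted p was 0.1003. *IGFBP3*, the main carrier of IGFs in blood, had 68.6, 70.2 and 67.9 CPM in NC, against 76.9, 76.5 and 88.6 CPM with PON1-OE. These groups did not overlap, and the log2 fold change of 0.23 (SE 0.058) had an adjusted p of 0.0882, which was 0.0172 without the filter on low counts, 0.0490 with DESeq2 and 0.0462 without PON1-OE replicate 2. Outside the rule for named genes, the receptors were looked at for their role. The signaling receptor *IGF1R* had a log2 fold change of -0.10 (adjusted p = 0.639), and the clearance receptor *IGF2R* of 0.11 (adjusted p = 0.189).

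The LIN28 and let-7 list held let-7 processing factors and known let-7 targets. Of 21 genes, 19 were in the table and 16 were tested. Of these, 1 was called with PON1-OE higher and 0 with PON1-OE lower, against 0.502% and 0.176% of all genes tested. The median log2 fold change of the list was 0.02. The gene called was *HMGA2*, a chromatin protein of fetal tissues. It had 74.8, 85.8 and 75.6 CPM in NC, against 96.7, 88.9 and 95.9 CPM with PON1-OE. All PON1-OE libraries were higher than all NC libraries, with a log2 fold change of 0.25 (SE 0.057, adjusted p = 0.0433). Its 3′ UTR also held 4 let-7 seed matches, as those of *IGF2BP1* and *LIN28B* did. They are at the following places on the plus strand.
chr12:65963301-65963330: aacgttcgatttCTACCTCagcagcagttg
chr12:65964536-65964565: cactactcaataCTACCTCtgaatgttaca
chr12:65964948-65964977: acttgcaaagacCTACCTCcagacttcaaa
chr12:65965801-65965830: caaaacacactaCTACCTCttaagtcccag
The call of *HMGA2* rested on its libraries closely. The adjusted p was 0.268 without NC replicate 1 and 0.309 without NC replicate 3. When PON1-OE replicate 1 or 3 was left out, it was 0.145 and 0.217, and in limma-voom it was 0.0513. *DGCR8*, a cofactor of the microRNA processor DROSHA, had a log2 fold change of 0.16 with groups that did not overlap (SE 0.076, adjusted p = 0.443).

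The list of IGF2BP target mRNAs had 15 genes, of which 14 were tested. Only *HMGA2*, which is in both lists, was called, with PON1-OE higher, against 0.502% of all genes tested in that direction. The median log2 fold change of the list was 0.01. *ACTB*, whose mRNA is the classical target of IGF2BP1, had 4437, 4463 and 4437 CPM in NC, against 4594, 4791 and 4663 CPM with PON1-OE. The groups did not overlap, and the log2 fold change of 0.07 (SE 0.028) had an adjusted p of 0.297.

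Among the partners of glypicans, DLK1 and CD24, 12 of 22 genes were tested. Of these, 1 was called with PON1-OE higher and 0 with PON1-OE lower, against 0.502% and 0.176% of all genes tested. The median log2 fold change of the list was 0.04. The gene called was *HEY1*, a transcription factor induced by Notch receptors. It had 42.7, 40.9 and 41.9 CPM in NC, against 53.2, 46.2 and 56.6 CPM with PON1-OE. The log2 fold change was 0.31 (SE 0.070, adjusted p = 0.0396). The call was lost when any library other than PON1-OE replicate 2 was left out, with adjusted p of 0.122, 0.0951, 0.212, 0.124 and 0.298 without NC replicates 1 to 3 and PON1-OE replicates 1 and 3, and it was also lost in limma-voom (0.0523). *XYLT2*, which starts the sugar chains of proteoglycans, had a log2 fold change of 0.20 with groups that did not overlap (SE 0.074, adjusted p = 0.302).

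Of 14 regulators of *AFP*, 13 were tested. None had an adjusted p under 0.05 by edgeR or limma-voom, nor by DESeq2 for the 7 to which it gave one. Over all genes tested by edgeR, this share was 0.677%. By edgeR, 2 (*CEBPA* and *FOXA1*) had an unadjusted p under 0.05, both with PON1-OE lower. Among all genes tested, 11.1% had such a p in either direction. The median log2 fold change of the regulators was -0.01. *CEBPA*, a liver transcription factor, had 43.5, 43.4 and 48.7 CPM in NC, against 38.5, 43.2 and 40.9 CPM with PON1-OE. These groups did not overlap, by a narrow margin, with a log2 fold change of -0.15 (SE 0.068, adjusted p = 0.442).

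Of 22 further stem-like markers of liver cancer, 12 were tested. None had an adjusted p under 0.05 by edgeR or limma-voom, nor by DESeq2 for the 9 to which it gave one. Over all genes tested by edgeR, this share was 0.677%. At an unadjusted p under 0.05 by edgeR, 1 (*CD44*) was higher and 2 (*ABCG2* and *ALDH1A1*) were lower. Among all genes tested, 11.1% had such a p in either direction. The median log2 fold change was -0.01. *ABCG2*, a drug efflux pump, had 111, 123 and 128 CPM in NC, against 106, 109.6 and 107 CPM with PON1-OE. The groups did not overlap, with a log2 fold change of -0.17 (SE 0.050, adjusted p = 0.176).

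Of 24 other liver cancer markers, 19 were tested. Of these, 2 were called with PON1-OE higher and 1 with PON1-OE lower, against 0.502% and 0.176% of all genes tested. The list was chosen with earlier results of these data known, so its calls cannot be weighed against these shares. The median log2 fold change of the list was 0.00. *SPP1*, which encodes the secreted phosphoprotein osteopontin, had 325, 315 and 311 CPM in NC, against 360.3, 353 and 361 CPM with PON1-OE. Its log2 fold change was 0.17 (SE 0.035, adjusted p = 0.0231). *ANXA2*, a membrane-binding annexin, had 2200.4, 2119 and 2204 CPM in NC, against 2433, 2402 and 2415 CPM with PON1-OE. Its log2 fold change was 0.15 (SE 0.030, adjusted p = 0.0187). *HSPA1A*, an inducible heat shock protein used in the diagnosis of early HCC, had 496, 517 and 500.0 CPM in NC, against 409, 442 and 444 CPM with PON1-OE. Its log2 fold change was -0.22 (SE 0.038, adjusted p = 0.00682), and its reads cannot be fully told apart from those of the near-identical *HSPA1B*. The groups did not overlap for any of these 3 genes. The call of *HSPA1A* was lost without NC replicate 3 (adjusted p = 0.0523). That of *ANXA2* was lost without NC replicates 1, 2 or 3 or PON1-OE replicate 3 (adjusted p = 0.0777, 0.0594, 0.0886 and 0.110), and that of *SPP1* was lost when any library other than PON1-OE replicate 2 was left out (adjusted p of 0.05003 to 0.194).

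**Figure D4:**
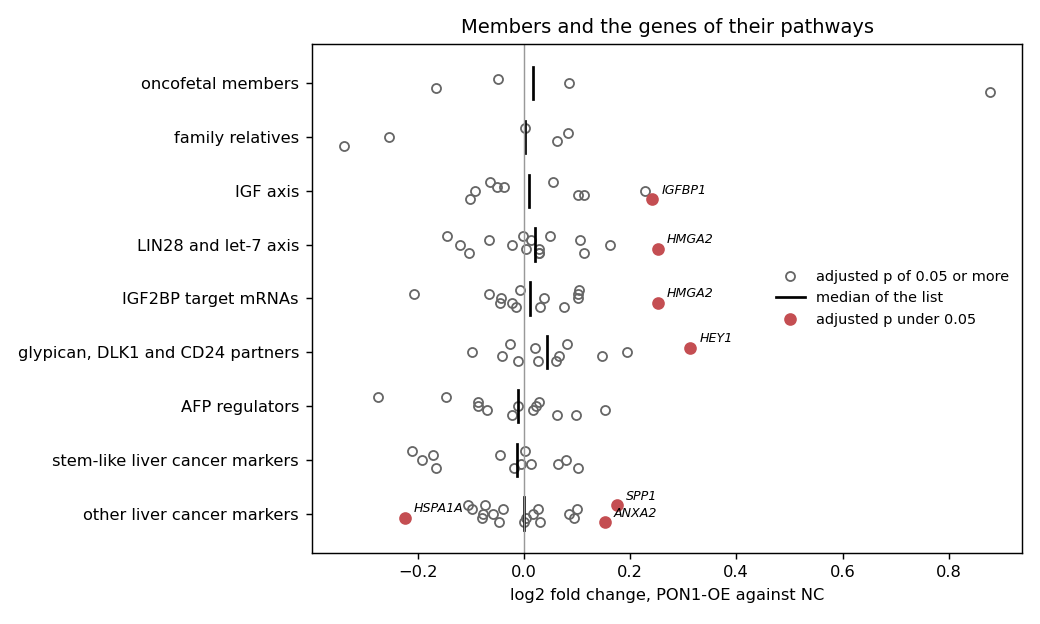
Log2 fold change of PON1-OE against NC (x axis) of the genes tested in each list (rows), with open circles for an adjusted p of 0.05 or more, red circles for an adjusted p under 0.05 by edgeR and black bars for list medians. The list medians lie between -0.01 and 0.04, *AFP* at 0.88 lies apart without passing the test, and *HMGA2* appears in 2 lists.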

How the data were processed

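RNA-seq libraries of HCCLM3 cells were grouped by their titles into PON1-OE and NC (n = 3 each). The authors deposited estimated counts per gene, not normalized and not pooled, with Ensembl identifiers. Of all deposited count values, 10.5% were not whole, and all were rounded before testing. The submitters' processing notes name HISAT2, Bowtie2 2.2.8, StringTie 1.3.1 and DESeq2, without their roles. The genome build, annotation and strand setting were not given in the sources used here, and the way shared reads were divided can move genes that overlap. Of 20381 identifiers, 20126 matched GENCODE v29, which gave coordinates (GRCh38), transcript lengths and 3′ UTRs.

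Counts were analyzed in R 4.3.3 with edgeR 4.0.16. After filterByExpr, 11958 genes remained. TMM factors scaled the libraries, and PON1-OE was compared with NC by glmQLFit and glmQLFTest without covariates (common dispersion 0.00192). Benjamini-Hochberg adjustment covered all genes tested. A called gene had an adjusted p under 0.05. CPM values were TMM-normalized and SD was over libraries. With totals of 15706672 to 17948383 per library, 3 counts corresponded to 0.166 to 0.192 CPM. Pairs of libraries within a group differed by more than sampling noise (chi-square per degree of freedom 2.11 to 4.11), so that none was treated as a library deposited again, which does not show separate cultures. The planned test assumed whole counts and was kept after rounding.

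The members and gene lists were chosen with earlier results of these data known. Named genes were all members, *PON1*, all family relatives and, from each list, every gene with an adjusted p under 0.05 and up to 2 genes per direction with the largest change among those with an unadjusted p under 0.05 and groups that did not overlap. *APOB*, *APOH*, *FOXA1*, *CD44*, *ALDH1A1*, *IGF1R* and *IGF2R* were named after their values were seen. Alternatives were DESeq2 size factors (RLE), DESeq2 1.42.0, limma-voom (limma 3.58.1), a replicate block, the removal of each library in turn, no low-count filter, a minimum of 10 counts throughout, an absolute log2 fold change over 1, and another transcript length. The fits were tested on simulated counts. Some single genes of the marker lists are not reported here.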

Additional observations from a re-analysis of the deposited data

How the results depend on the processing

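Low counts limit *AFP*, *IGF2* and the members at or under 3 counts, where small differences were not detectable, and each group had 3 libraries. The serum content and time of the series design text differ from a selected line, reads of overlapping genes could not be separated, and how the replicates were derived was not given in the sources used here.

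No member had an adjusted p under 0.05 under any alternative, alone or with a fold threshold, and the direction of *AFP*, *SPINK1* and *IGF2BP1* was the same in each alternative that could be compared (10, 11 and 12 alternatives, with *AFP* missing from the minimum of 10 counts). The median log2 fold change of the members was -0.0485 without a filter, -0.0470 with at least 10 counts in every library and -0.0479 with DESeq2, which add or drop members, and -0.0015 to 0.0687 with each library left out, the highest without PON1-OE replicate 2. The members with an unadjusted p under 0.05 numbered 1 in limma-voom (*AFP*) and 0 to 2 with a library left out, 1 without NC replicate 1 (*AFP*) and 2 without PON1-OE replicate 2 (*SPINK1* and *IGF2BP1*). Members with groups that do not overlap numbered 1 to 2 with a library left out, an alternative added after seeing the data. They numbered 2 without NC replicate 1 or PON1-OE replicates 2 or 3. Smaller groups separate more easily, so the 16.1% of all genes tested with all 6 libraries does not apply here. No share over all genes was computed for these settings, nor for an unadjusted p under 0.05 in limma-voom or with a library left out. *IGF2BP3* had -0.114 to 0.0411 with a library left out, and changed sign to 0.0411 without PON1-OE replicate 2. DESeq2 filtered *PON1*, *AFP* and *SPINK1* on mean count and gave them no adjusted p.

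For the lists, the genes with an adjusted p under 0.05 numbered 2 in the IGF axis without a filter and with DESeq2 (*IGFBP3* added), 1 among stem-like markers without a filter (*ALDH1A1*, named after its values were seen), and 0 in the LIN28 and let-7 list, the IGF2BP targets and the partners with limma-voom. With a library left out they were 0 to 2 in the IGF axis, 0 to 1 in the LIN28 and let-7 list, 0 to 2 in the IGF2BP targets, 0 to 1 in the partners, 0 to 1 among stem-like markers and 0 to 3 among other liver cancer markers. Over all genes, 81 calls became 177 without a filter, 40 under the block and 11 without NC replicate 3.

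The replicate numbers did not pair the libraries (correlations of same-numbered deviations 0.02, -0.02 and 0.02). In the fit with a replicate block, calls numbered 0 in the LIN28 and let-7 list, 0 in the IGF2BP targets, 0 in the partners and 1 among other liver cancer markers, since *HMGA2*, *HEY1*, *SPP1* and *ANXA2* had adjusted p of 0.0969, 0.0635, 0.0663 and 0.0844, and the median of the members was 0.02.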
